A study of Caenorhabditis elegans with 2 samples.

Results

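The regions described here are the places in an NHR-77 chromatin immunoprecipitation sequencing (ChIP-seq) data set that lie at transfer RNA (tRNA) genes of *Caenorhabditis elegans*. They were chosen by position alone, as the regions of the authors' relaxed list of both replicates pooled (build ce11) whose summit lay within 500 bp of a gene of biotype tRNA in the Ensembl annotation of WBcel235. Of 30000 pooled regions, 1.34% met this rule, made up of 19 past the authors' reproducibility threshold and 382 below it, and they were nearest to 354 of the 612 nuclear tRNA genes. ChIP-seq enriches DNA bound to a protein, here the nuclear hormone receptor NHR-77 fused to eGFP, and the peak caller gives each enriched region a score. The study had 1 group of 2 biological replicates: whole L2 larvae, both sexes pooled, of strain OP353, in which the insertion wgIs353 supplies the tagged receptor in a background with the unc-119(tm4063) mutation on III. The labels list the antibody under the name nhr-77 and do not say which promoter drives the tagged gene. Both replicates share this genotype, and no untagged or control sample was used here. Whether tRNA genes would stand as high with another protein or with no tag was therefore not tested.

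tRNA genes are transcribed by RNA polymerase III from a promoter that lies inside the gene. The factor TFIIIC binds the A box and the B box within the transcribed sequence and recruits TFIIIB, which sits just upstream of the start and brings in the polymerase. The genes are short, many exist as identical copies scattered over the genome, and in *C. elegans* they are strongly concentrated on the X chromosome. Nuclear hormone receptors are instead RNA polymerase II regulators, usually studied at the promoters and enhancers of protein-coding genes.

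The genes themselves ran from 64 to 122 bp, with a median of 72 bp, shorter than the median region of 330 bp. The gene sequences of 6 of the regions with the highest scores are shown because tRNA genes carry their promoter inside the transcribed sequence. Each is 1 strand of the reference genome WBcel235, read 5′ to 3′ along the gene, and the capitals mark the B box, searched as GTTCGANNC or GTTCAANNC. The genes are R04A9.t1 (glutamine, chrX:410391-410462, plus strand), R11.t1 (tyrosine, chrX:16209769-16209852, minus strand), ZK899.t1 (proline, chrX:9467729-9467800, minus strand), C33G3.t2 (lysine, chrX:14063946-14064018, minus strand), F57F5.t1 (isoleucine, chrV:12002176-12002260, plus strand) and C05G6.t1 (valine, chrIV:620482-620554, plus strand). Amino acid types are those of the RefSeq annotation. Each of these genes holds 1 B box near its 3′ end. The region at R04A9.t1 ends before the marked B box, and those at the other 5 genes cover it.
R04A9.t1: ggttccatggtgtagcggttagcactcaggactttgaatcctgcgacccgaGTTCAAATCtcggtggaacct
R11.t1: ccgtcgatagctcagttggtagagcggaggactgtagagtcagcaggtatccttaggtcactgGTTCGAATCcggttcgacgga
ZK899.t1: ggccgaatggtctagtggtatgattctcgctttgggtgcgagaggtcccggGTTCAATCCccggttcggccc
C33G3.t2: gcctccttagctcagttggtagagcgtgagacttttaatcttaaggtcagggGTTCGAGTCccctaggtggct
F57F5.t1: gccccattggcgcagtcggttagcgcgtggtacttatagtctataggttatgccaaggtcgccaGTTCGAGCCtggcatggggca
C05G6.t1: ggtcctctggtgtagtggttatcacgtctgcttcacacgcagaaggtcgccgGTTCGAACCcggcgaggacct

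Region summits gathered at the tRNA genes and close beside them. Of these regions, 105 (26.2%, 95% Clopper-Pearson interval 21.9 to 30.8) had the summit inside the gene, 159 (39.7%) upstream of its 5′ end and 137 (34.2%) downstream of its 3′ end. The summit lay within 100 bp of the gene in 296 (73.8%, interval 69.2 to 78.1), and the region overlapped the gene in 331 (82.5%). Counted along the strand of the gene, 120 summits fell in the 100 bp before the 5′ end, 123 in the first 100 bp after it and 66 in the next 100 bp. The 100 bp bins from 100 to 500 bp upstream held only 6 to 13 summits each. The counts therefore rose at the gene and close beside it, and were low farther away on both sides, in the pooled list and in each replicate list. Summits stand at the middle of the region in 99.9% of pooled entries, and the median region is 330 bp wide. Overlap of a region with the gene therefore largely restates how close its summit lies. How precise the summit positions are was not tested.

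**Figure D1:**
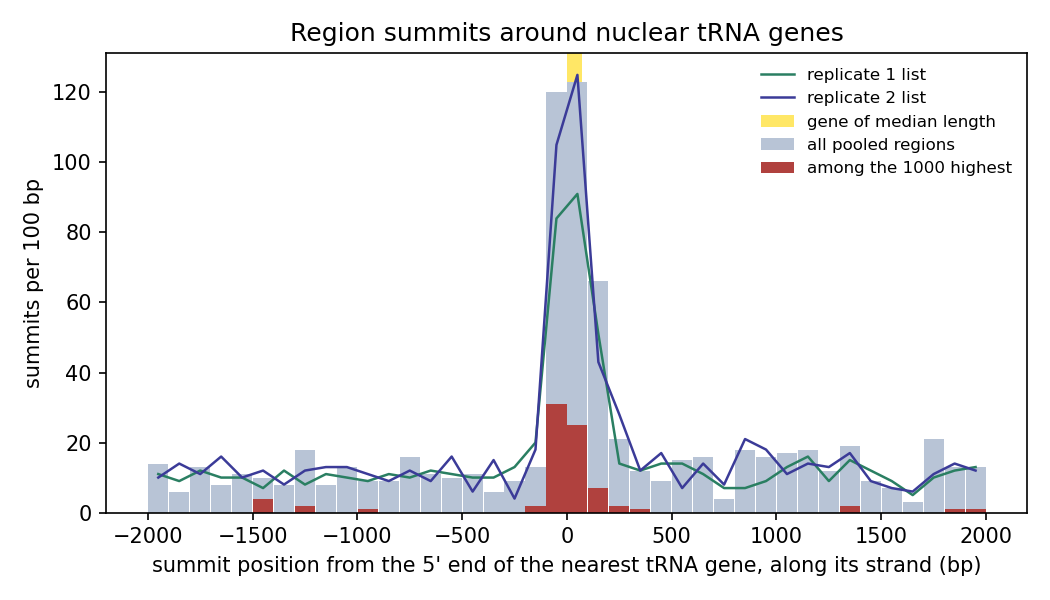
Number of region summits per 100 bp (vertical axis) by distance in bp from the 5′ end of the nearest tRNA gene along its strand (horizontal axis). Grey-blue bars are all pooled regions, red bars those among the 1000 highest, and lines the relaxed list of each replicate. The bins next to the 5′ end hold 120 and 123 pooled summits, far above the bins farther away.

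Regions closer to the gene ranked higher. The median rank in the pooled list, where 1 is the highest score, was 3313 for the 105 regions with the summit inside the gene, 4013 for the 191 at 1 to 100 bp, 10080 for the 44 beyond that up to 200 bp and 14461 for the 61 farther than 200 bp. Regions among the 1000 highest made up 22.9% (interval 15.2 to 32.1) of those inside, 19.9% (14.5 to 26.3) of those at 1 to 100 bp and 1.64% (0.0415 to 8.80) of those farther than 200 bp. The farthest group thus ranked close to the middle of the list. The 24 regions in the last 100 bp inside the 500 bp limit had a median rank of 14843.5, and the 125 just outside it, up to 1000 bp, had 16513. Upstream summits ranked higher than downstream ones, with median ranks of 4706 and 9427. Of the 191 summits at 1 to 100 bp, however, 120 lay upstream, so the sides also differed in distance. A difference by side at equal distance was not tested. All of these intervals, and those that follow, cover counting error over regions or genes only, since the files do not give the depth of sequencing.

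tRNA genes were concentrated in the upper part of the pooled list. They accounted for 19 of the 415 peaks past the authors' reproducibility threshold (4.58%, interval 2.78 to 7.06), 49 of the regions ranked 416 to 1000 (8.38%, interval 6.26 to 10.9) and 60 of those ranked 1001 to 2000 (6.0%). The intervals of the first 2 bins overlapped, and whether their shares differ was not tested. The share was then 3.00% up to rank 3000, 2.00% up to rank 5000, and 0.600% to 1.14% in the bins beyond it. In all, 68 (17.0%, interval 13.4 to 21) were thus among the 1000 highest and 158 (39.4%, interval 34.6 to 44.4) among the 3000 highest, where the 1000 highest are 3.33% of all regions. Their median rank was 5084, or 16.9% of the way down the list, with a median score of 11.4 against 7.98 for all regions. In the replicate lists by themselves the median lay 28.8% (replicate 1) and 21.3% (replicate 2) of the way down. Regions at other short structural RNA genes had values near these in the pooled list, with a median rank of 5412 and 39.6% among the 3000 highest at small nucleolar RNA genes, and 5774 and 44.1% at small nuclear RNA genes.

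Each replicate list showed a high share of tRNA genes at its upper end. In replicate 1, tRNA genes held 5.54% of the 415 highest nuclear regions and 4.79% of those ranked 416 to 1000, against 1.42% of its whole nuclear list. In replicate 2 the shares were 3.61% and 5.81%, against 1.26%. The intervals of these 2 bins overlapped within each replicate, and whether their shares differ was not tested. Regions near protein-coding starts made up 58.1% of the 415 pooled peaks and 43.9% of the regions ranked 416 to 1000.

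**Figure D2:**
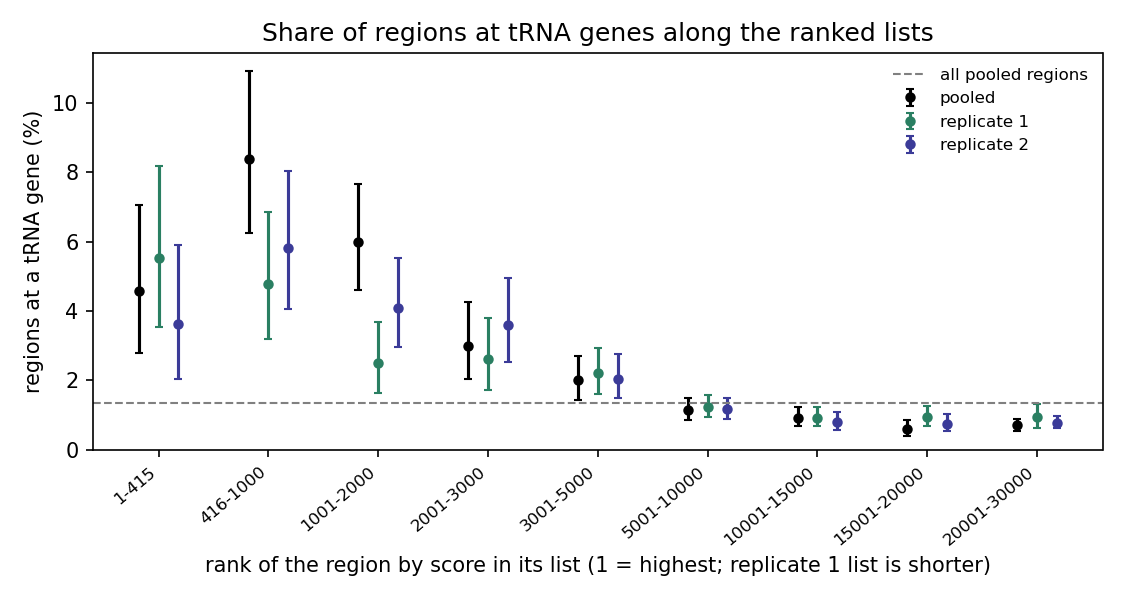
Percent of regions with the summit within 500 bp of a tRNA gene (vertical axis) in bins of rank by score (horizontal axis), for the pooled list and each replicate list, with 95% Clopper-Pearson intervals. The pooled share is 8.38% at ranks 416 to 1000 and under 1% beyond rank 10000, and the dashed line is the 1.34% of all pooled regions.

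Past the threshold were 19 of the regions at tRNA genes (4.74%, interval 2.88 to 7.30), where the thresholded list as a whole is 1.38% of the pooled list. The share stood well below that of regions at other short structural RNA genes, 16 of 68 (23.5%, interval 14.1 to 35.4) at small nuclear RNA genes and 24 of 207 (11.6%, interval 7.57 to 16.8) at small nucleolar RNA genes. It was close to the 3.56% (241 of 6771, interval 3.13 to 4.03) of regions within 500 bp of a protein-coding start. In each replicate list by itself, 23 of 330 regions at tRNA genes (6.97%) were among the 415 highest nuclear regions of replicate 1, where the background is 1.79%, and 15 of 379 (3.96%) among those of replicate 2, where it is 1.38%. No test was run on these shares, because the regions were proposed with earlier results of the same lists known.

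The highest region stood apart from the others in score and in place. It spanned chrX:8036310-8036559 near C18A11.t2, an arginine tRNA gene (WBGene00022939, chrX:8036685-8036757, minus strand), with a score of 149.7 and rank 14 in the pooled list, and it ranked 11 among the nuclear regions of replicate 1 and 14 in replicate 2. Its summit lay 200 bp downstream of the tRNA gene, which the region did not overlap, and 4828 bp away from the start of the sex determination switch gene xol-1. The next region at a tRNA gene had a score of 49.9. The summit base with 50 bases on each side (chrX:8036435-8036535, plus strand) are shown because they hold GCGCAGGG, in capitals, the core of a motif on X known to recruit the dosage compensation complex. GCGCAGGG, chosen after values were seen and searched on both strands within 100 bp of each summit, occurred at 2 of the regions at tRNA genes (0.499%), at 14 of the 415 thresholded peaks (3.37%) and at 34 of all 30000 regions (0.113%). A match of letters is a description and not a binding site.
C18A11.t2 summit window: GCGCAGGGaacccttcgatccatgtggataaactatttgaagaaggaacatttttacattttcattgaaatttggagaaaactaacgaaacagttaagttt

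Besides this region, 3 others past the threshold stood high in both replicates, that is, they had a summit of the 415 highest nuclear regions of each replicate within 100 bp. The region at R04A9.t1, a glutamine tRNA gene (WBGene00023117), had pooled rank 92 and ranked 91 in replicate 1 and 94 in replicate 2. The region at M02F4.t1, a glycine tRNA gene (WBGene00023110), had pooled rank 170 and ranked 319 and 132, and the glutamate gene M02F4.t2 lay within 500 bp of the same summit. The region at C28G1.t1, a glutamate tRNA gene (WBGene00022947) on the same strand as its host gene C28G1.2, had pooled rank 264 and ranked 181 and 343. All 3 had the summit upstream of the tRNA gene, by 121, 49 and 50 bp, and all 3 were on X.

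The other 15 regions past the threshold were high in 1 replicate or in neither. Among the 4 that were high in replicate 1 only, the region at C53C7.t2 (serine, X) ranked 94 there and 2275 in replicate 2. The region at C33G3.t2 (lysine, X), whose gene is printed above, ranked 147 in replicate 1 and 18483 in replicate 2. The regions at C04A11.t1 (leucine, X) and F41A4.t1 (aspartate, IV) ranked 234 and 245 in replicate 1, against 1120 and 655 in replicate 2. Thus C33G3.t2 stood in the upper part of the list in replicate 1 and in the lower part in replicate 2.

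A further 8 were high in replicate 2 only. The region at R11.t1 (tyrosine, X) ranked 107 there and 695 in replicate 1. The region at ZK899.t1 (proline, X) ranked 175 there, and replicate 1 had no region with a summit within 100 bp. Next came C05G6.t1 (valine, IV), which ranked 234 in replicate 2 and 1653 in replicate 1. The region at C16D9.t4 (tyrosine, V) ranked 284 and again had no counterpart in replicate 1; its summit lay 237 bp downstream of the tRNA gene and 87 bp from a small nucleolar RNA gene, so the tRNA gene is not the nearest short RNA gene. The other 4, at Y38E10A.t1 (alanine, II), T10B10.t2 (glycine, X), C27A2.t1 (isoleucine, II) and F57F5.t1 (isoleucine, V), ranked 288 to 395 in replicate 2 and 454 to 2753 in replicate 1. In the remaining 3, neither replicate ranked the region among its 415 highest: F49D11.t2 (glycine, I), B0228.t1 (glutamine, II) and F56C3.t1 (glycine, X) ranked 461 to 664 in replicate 2, and the region at F56C3.t1 had no counterpart in replicate 1.

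The threshold cut through a continuous run of scores. The last region inside it, at F56C3.t1, had a score of 27.1 and pooled rank 412. The next at a tRNA gene, at T07H6.t2 (alanine, X), had 26.5 and rank 439. It was followed by W02H3.t1 (leucine, X) at rank 445, K09C8.t1 (glycine, X) at 472, B0523.t1 (tryptophan, III) at 544 and F34H10.t1 (alanine, X) at 545. W02H3.t1 ranked 129 in replicate 1 and 722 in replicate 2, higher in both than the regions at C33G3.t2 and C04A11.t1, which were past the threshold.

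The order of these regions differed between the replicates. Of these regions, 132 had a summit within 100 bp in both replicate lists, 156 in replicate 2 only, 56 in replicate 1 only and 57 in neither. Across the 132, Spearman's rho between the replicate ranks was 0.22, against 0.39 across 3278 pooled regions and 0.42 across 369 thresholded peaks present in both lists. These are descriptions across regions, and the sets differ in their range of score. High in both replicates were 4 of the regions at tRNA genes (0.998%, interval 0.272 to 2.53), against 0.603% of all pooled regions, so the share lay near the background. Of the 19 past the threshold these 4 made up 21.1% (interval 6.05 to 45.6), against 44.7% (177 of 396, interval 39.7 to 49.7) of the other thresholded peaks. The intervals of these last shares overlapped. The 19 also stood lower in the thresholded list, with a median rank of 312 against 208 for all its peaks. The shares were not matched for rank. Below the threshold, 12 regions at tRNA genes were high in replicate 1 only and 3 in replicate 2 only. The most uneven was at T21B4.t1 (isoleucine, II), which ranked 78 in replicate 1 and 27984 in replicate 2, and was picked out after its values were seen.

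**Figure D3:**
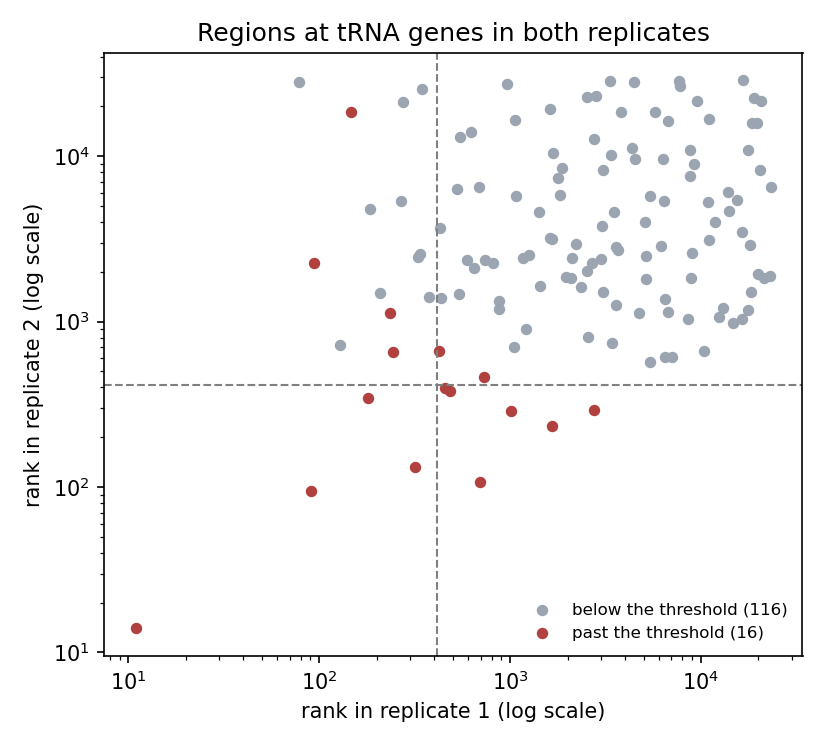
Rank in replicate 1 (horizontal, log scale) against rank in replicate 2 (vertical, log scale) for the 132 regions at tRNA genes with a summit within 100 bp in both lists. Red points are the 16 of these past the threshold in the pooled list, grey points the other 116, and dashed lines mark rank 415. The points spread widely (rho = 0.22), and 4 lie in the corner where both ranks are 415 or better.

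From the side of the genes, most tRNA genes had a region. A pooled summit lay within 500 bp of 407 of the 612 (66.5%, interval 62.6 to 70.2), while 27.3% of the nuclear genome lies that close to a pooled summit. The relaxed list of replicate 1 reached 350 genes (57.2%), that of replicate 2 reached 395 (64.5%) and both reached 259 (42.3%). A thresholded peak lay within 500 bp of 23 genes (3.76%), against 0.409% of the nuclear genome. Other short RNA genes had a pooled region less often in these lists: 53.8% of 346 small nucleolar RNA genes (interval 48.3 to 59.1), 44.2% of 129 small nuclear RNA genes (35.5 to 53.2) and 36.8% of 261 microRNA genes (30.9 to 42.9). A thresholded peak, on the other hand, lay by 10.1% of small nuclear RNA genes (interval 5.48 to 16.6), 6.94% of small nucleolar RNA genes (4.49 to 10.1), and by 1.53% of microRNA genes (0.419 to 3.88), against 3.76% of tRNA genes.

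Regions were found at tRNA genes for every amino acid. The share of genes with a region ran from 45.0% for histidine (9 of 20, interval 23.1 to 68.5) to 84.6% for cysteine (11 of 13, interval 54.6 to 98.1) among types with more than 1 gene, and the intervals of these extremes overlapped. Alanine had 28 of 34 (82.4%) and glutamine 22 of 27 (81.5%), while proline had 24 of 42 (57.1%) and glycine 33 of 55. The single selenocysteine gene, K11H12.t1, which reads a stop codon in selenoprotein messages, had a region of rank 1386. Median ranks ran from 1975 for the 21 proline regions to 16826 for the 11 asparagine regions. These medians rest on few regions and on genes that are copies of each other.

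Peaks past the threshold were spread over 13 types. Glycine had 4 of its 29 regions past the threshold, with M02F4.t1 the highest, and glutamine, isoleucine and tyrosine had 2 each. There was 1 each for alanine, arginine, aspartate, glutamate, leucine, lysine, proline, serine and valine. The asparagine, cysteine, histidine, methionine, phenylalanine, selenocysteine, threonine and tryptophan genes and the untyped ones had none past it. Each of these types has only 1 to 21 regions, so a lower share than in the other types was not detectable. The highest regions of these types were at B0523.t1 for tryptophan (rank 544), F41D9.t3 for asparagine (571), W09G10.t3 for threonine (603) and F32A6.t1 for phenylalanine (671).

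**Figure D4:**
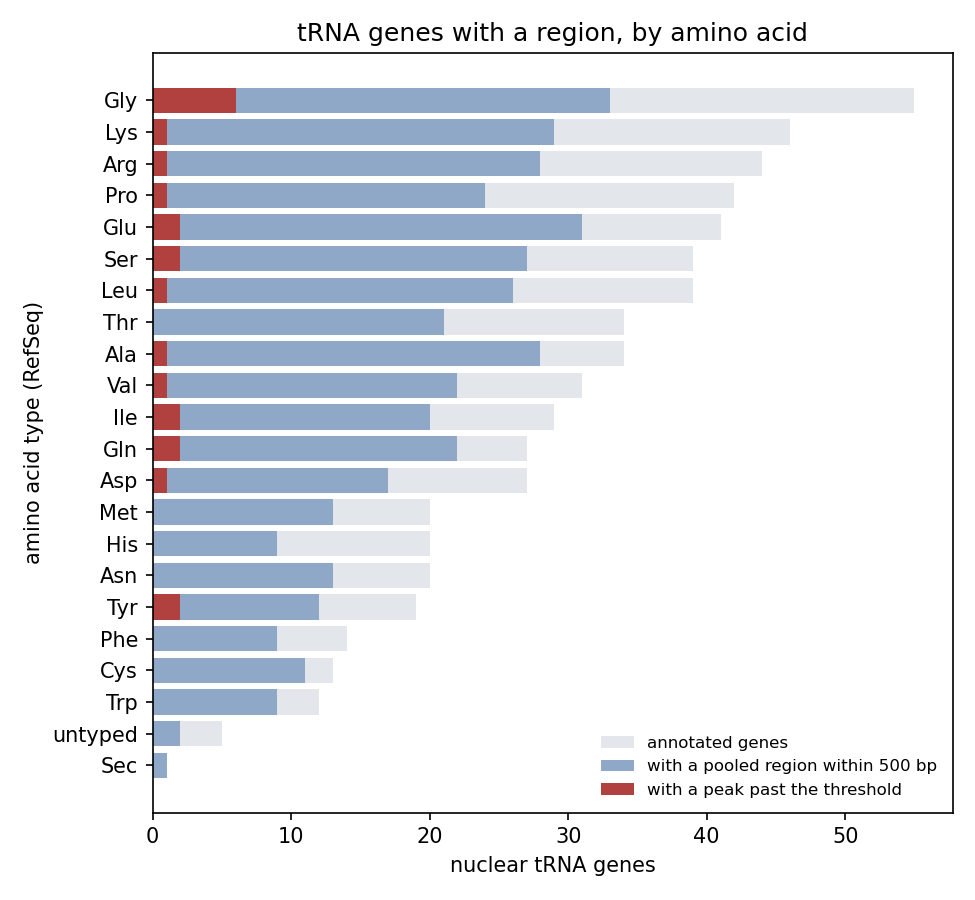
Number of nuclear tRNA genes (horizontal axis) by amino acid type (vertical axis). Pale bars are all annotated genes, blue bars those with a pooled region within 500 bp, and red bars those with a thresholded peak within 500 bp. Glycine has the most genes (55) and the most with a peak (6), and histidine has the lowest share with a region among the amino acid types with more than 1 gene (9 of 20).

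Genes that exist as identical copies had a region more often than genes with a sequence of their own. The 612 genes comprised 200 distinct sequences. A region was present at 52.4% of the 143 genes with no identical copy (interval 43.9 to 60.9), at 69.7% of the 152 genes with 2 to 9 copies (61.8 to 76.9) and at 71.3% of the 317 genes with 10 or more (66.0 to 76.2). The shares of regions past the threshold were 5.48%, 3.77% and 4.95%, with no order by copy number, against 1.38% of all pooled regions. F57F5.t1 and C05G6.t1, printed above, B0228.t1 and C04A11.t1 have no identical copy, so no identical gene shares reads with these 4; near-identical genes were not searched. How such reads were placed is not given in the sources used here, and its part in the values at the other genes was not tested.

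Within a family of identical genes, single copies differed widely. The largest was a glycine family of 29 genes, of which 19 had a region and 6 lay within 500 bp of a thresholded peak (F49D11.t1, F49D11.t2, F56C3.t1, M02F4.t1, T10B10.t1 and T10B10.t2). Of the 25 identical copies of a lysine gene, 16 had a region and none had a peak, and of 18 copies of an asparagine gene 13 had a region and none had a peak. All 15 copies of an alanine gene had a region, the highest at rank 545. Why copies of the same sequence differed was not tested, and how reads shared by identical copies were placed is not given.

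Clustered and single genes had nearly equal shares, but a summit counted for every gene within 500 bp of it. Joining neighbours whose starts lay within 2000 bp gave 111 clusters with 269 genes and left 343 genes alone. A region was present at 66.5% of the clustered and 66.5% of the single genes. Neighbours could share a region, and the nearest tRNA gene was a clustered one for 139 regions and a single one for 262. Of the regions at clustered genes 4.32% were past the threshold, and of those at single genes 4.96%, against 1.38% of all pooled regions. The largest cluster, 8 genes of the F22F1 group on X, had regions at 6 genes, the best at rank 1048. The 5 glutamine genes of the H08J11 cluster all had a region, with neighbours sharing best ranks of 15126 or 1437. The 6 histidine genes of the F28H6 cluster had none. The 4 tyrosine genes of the R11 cluster all had a region, and R11.t1 had the peak at rank 124.

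A tRNA gene often lies inside a protein-coding gene, and the shares are given by that setting. A region was present at 222 of 322 genes outside protein-coding genes (68.9%, interval 63.6 to 74.0), at 85 of 123 on the opposite strand of a host gene (69.1%, 60.1 to 77.1) and at 100 of 167 on the same strand (59.9%, 52.0 to 67.4). The intervals of these shares overlapped. Past the threshold were 14 of 213 regions at genes outside any protein-coding gene (6.57%), which make up 53.1% of the regions at tRNA genes. On the strand of the host there were 4 of 104 (3.85%), at C28G1.t1, C05G6.t1, C27A2.t1 and F49D11.t2. On the opposite strand there was 1 of 84 (1.19%), at R04A9.t1 in ZK1193.2. The last of these counts is too small to order the settings. Of all pooled regions 1.38% were past the threshold, a share that was not split by setting.

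X held the largest number of these regions, as it holds the most tRNA genes. It carried 276 of the 612 genes (45.1%, interval 41.1 to 49.1) and 180 of the regions at tRNA genes (44.9%, interval 39.9 to 49.9), against 17.8% of all pooled regions. The share of these regions on X was thus close to the share of genes on X. Counted by gene, however, the share with a region was highest on X, at 72.8% (interval 67.2 to 78.0). It was about the same on II and III (70.2% and 70.3%), and lower on IV (63.4%). The intervals of I (54.5%, 41.8 to 66.9) and V (51.3%, 39.7 to 62.8) lay below that of X, and no test was run.

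The share among the 1000 highest was larger on X than on each autosome, a difference that was not tested. Among the 1000 highest stood 40 of the 180 on X (22.2%, interval 16.4 to 29), against 11.1% to 14.3% on the single autosomes. The interval of X overlapped that of each autosome, which does not decide whether the shares differ. For all X regions the share among the 1000 highest was 3.80%, within the autosomal range of 2.43% to 3.99%. Past the threshold were 11 of the 180 X regions (6.11%, interval 3.09 to 10.7; all X regions 1.67%) and 8 of the 221 autosomal ones (3.62%, interval 1.58 to 7.01; all autosomal regions 1.32%). The highest on each autosome were at F41A4.t1 on IV (rank 301), F57F5.t1 on V (312), C27A2.t1 on II (319), F49D11.t2 on I (353) and B0523.t1 on III (544). Chromosome III had 0 of 45 past the threshold, which allows up to 6.67% by the limit of 3 counts. The median rank was 4046.5 on X and 11382.5 on V, the lowest and highest rank numbers among the chromosomes.

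**Figure D5:**
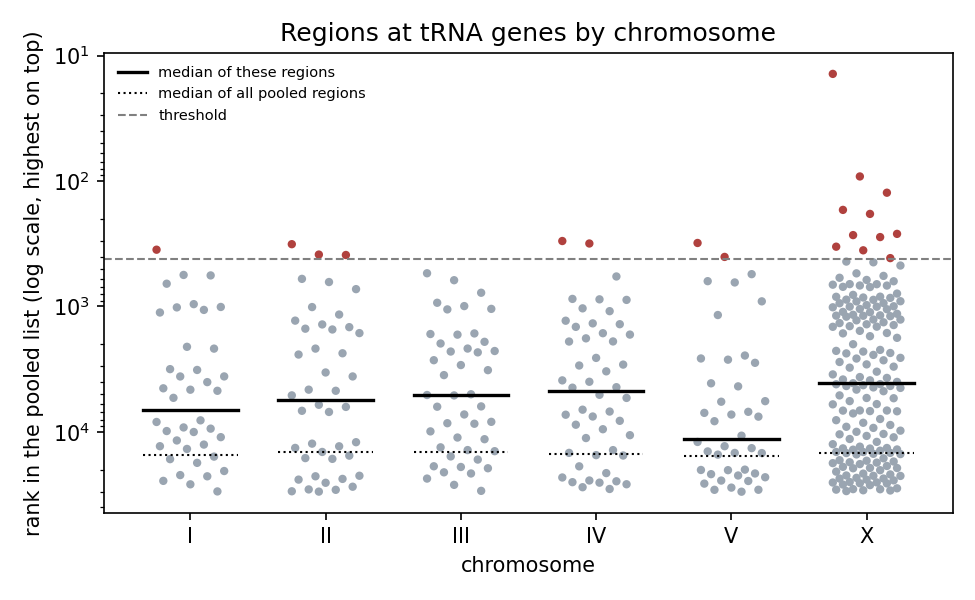
Rank in the pooled list (vertical axis, log scale, highest on top) of each region at a tRNA gene by chromosome (horizontal axis). Red points are past the threshold (dashed line), solid bars are medians of these regions and dotted bars medians of all pooled regions on the chromosome. The median of the tRNA regions is above that of all regions on each chromosome, and X has 11 of the 19 red points.

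These regions differed from the thresholded list in their distance to protein-coding genes. A protein-coding start lay within 500 bp of 72 of the summits at tRNA genes (18%, interval 14.3 to 22.1), against 22.6% of all regions. Of the 19 past the threshold, 3 (15.8%, interval 3.38 to 39.6) were that close to a start, against 60.1% (interval 55.1 to 65.0) of the other 396 peaks. Within the set, 3 of 72 regions near a start (4.17%, interval 0.868 to 11.7) and 16 of 329 away from starts (4.86%, interval 2.80 to 7.78) were past the threshold. Over all regions the same shares were 3.56% near starts and 0.749% away from them.

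Many of the summit windows held the letters of the internal promoter elements of tRNA genes. Within 100 bp of the summit, a B box occurred in 222 of the windows (55.4%, interval 50.3 to 60.3), against 4.82% of all pooled windows, and an A box in 182 (45.4%), against 6.26%. The A box was searched as TGGCNNAGT, TAGCNNAGT, TGGTNNAGT or TAGTNNAGT, and both motifs on both strands. Of the genes themselves 95.9% held the B box letters and 62.7% those of the A box, so both patterns follow from the choice of regions at tRNA genes and are no independent finding. Among the regions past the threshold 9 of 19 windows held a B box, the window by C18A11.t2 among them although it does not reach the tRNA gene, and the windows of R04A9.t1 and R11.t1 held none because their summits lay 121 and 89 bp upstream of the gene. Regions with a B box in the window had a median rank of 3267.5 and those without it 9222, and the former also lay closer to the gene by construction. Median GC content of the windows was 42.8%, against 34.3% of all windows and 43.3% of the thresholded peaks. Whether GC content has a part in the ranks was not tested.

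No gene of the lists for making and using tRNAs was assigned a thresholded peak. The lists covered RNA polymerase III and its factors, and the SNAP complex that serves small nuclear RNA genes. They also covered tRNA processing and modification enzymes, and cytosolic aminoacyl-tRNA synthetases. Each pooled region was assigned to the protein-coding gene with the nearest start, where that start lay within 2000 bp of the summit. A listed gene close to a summit was therefore not reached where another gene had a nearer start. Of the 11572 protein-coding genes so reached, 321 (2.77%) were assigned a thresholded peak. Of the 13, 8, 18 and 22 genes listed, 11, 7, 16 and 21 matched the annotation. Those reached gave 0 of 6, 0 of 4, 0 of 10 and 0 of 12, in all 0 of 32, which allows up to 9.38%. A difference from the background was therefore not detectable in these lists.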

How the data were processed

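Per the labels, whole L2 larvae of 1 group were assayed by ChIP-seq in 2 biological replicates. The authors deposited narrowPeak lists on build ce11: relaxed lists for either replicate and for the pool of both, and a list of peaks that passed their irreproducible discovery rate threshold, which holds the 415 highest pooled regions. The authors' text files state that the lists derive from alignments and a control file. Aligner, caller and versions were not given in the sources used here. The value used, column 7, is the score the authors' caller wrote, with no scale stated, so lists were compared by rank only. Peaks were called on pooled replicates, and the read depth is unknown. Lists on build ce10 were not used.

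Regions were matched to Ensembl release 115 genes by summit (within 500 bp), to replicate summits within 100 bp, and to protein-coding starts within 500 bp. Replicate 1 held 23 mitochondrial regions, 15 of them among its 25 highest, so its ranks count nuclear regions only (23233). Of the tRNA genes, 612 of 634 are nuclear, and 607 took an amino acid type from RefSeq, which gives all 612 the same coordinates. Sequences came from WBcel235. Shares carry 95% Clopper-Pearson intervals (scipy 1.17.1, Python 3.11.15), and no test was run on the members. The programs recovered the distances of positions placed around real tRNA genes and the B boxes planted in random sequences. Other steps were not checked this way.

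The members, motifs, gene lists and alternatives were chosen with earlier results of these data known. Named genes were those nearest to a region past the threshold, the 5 next below it, the highest of each replicate list and the highest of each amino acid type or chromosome discussed; families, clusters and T21B4.t1 were added after values were seen. Alternatives covered other distances, windows, thresholds, merged entries, each replicate list alone, and leaving out members near starts, near other short RNA genes or with identical copies. Autosomal members only and overlapping members only were added after the data were seen.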

Additional observations from a re-analysis of the deposited data

How the results depend on the processing

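Of 55 alternatives to the 9 main values, 37 stayed within the counting interval of the value (for medians, the spread between replicates) and 18 did not. The share past the threshold was 1.25% for the upper 208 peaks and 17.0% for the 1000 highest regions, against 0.693% and 3.33% of all regions. Other distances to the tRNA gene gave 57.0% (200 bp) and 76.3% (1000 bp) of genes with a region and a median of 27.8% down the list (1000 bp). The B box share was 65.0% within 200 bp, 43.5% within 1000 bp and 66.5% for overlapping regions, and 27.7% and 81.5% in windows of 50 and 200 bp on each side, where median GC was 42.6% and 39.9%. The gene extended by 50 bp held 58.1% of summits. Starts within 250 and 1000 bp were near 6.23% and 32.9% of the regions. With the 1000 highest of each replicate, 2.74% were high in both. Each of these moves came with a wider or narrower limit. The remaining moves were in the list of replicate 1 alone. Its median lay 28.8% down the list and 57.2% of genes had a region, against 16.9% and 66.5% in the pooled list.

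In the replicate lists alone, 6.97% (replicate 1) and 3.96% (replicate 2) were among the 415 highest nuclear regions, against backgrounds of 1.79% and 1.38%. Each list alone also gave 45.5% to 49.3% on X, 23.3% to 26.6% inside the gene and 15.5% to 18.2% near a start. The median lay 21.3% to 28.8% down the list, and 57.2% to 64.5% of genes had a region. Without members near another short RNA gene the share past the threshold was 4.56% (background 1.26%), and with overlapping entries merged 5.19% (1.44%). With genes of no identical copy it was 5.48% (1.38%) and with autosomal members 3.62% (1.32%). No paired analysis was possible because there is 1 group. Unknown read depth and the absence of a control list limit what these shares can show.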
